A study of Mus musculus with 6 samples.

Results

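The genes described here encode nuclear-encoded subunits of complexes I to IV of the mitochondrial respiratory chain. They were chosen by gene symbol, with no threshold on a measured value but with earlier results of these data known: 44 symbols were listed, 28 of complex I, 4 of complex II, 6 of complex III and 6 of complex IV. Of these, 41 had a probe in the platform annotation and 37 were detected and tested, among 9000 genes tested in all. The samples were 3 pools of NHD13 transgenic mice and 3 pools of wild type littermates, each pool made from the bone marrow of 3 mice aged 3 months and hybridised to 1 bead array. NHD13 mice carry a transgene for NUP98-HOXD13, a fusion protein known from human leukaemia and myelodysplastic syndrome, which is driven in this strain by the blood-specific Vav1 promoter. The wild type mice were littermates without the transgene. In both groups the RNA came from LK cells, the lineage-negative, Kit-positive fraction of marrow that holds stem cells and committed progenitors, purified by flow sorting. Each value below is a normalized intensity on the log2 scale, and each difference is NHD13 minus wild type.

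The respiratory chain sits in the inner mitochondrial membrane. Complex I takes electrons from NADH and complex II takes them from succinate, and both pass them to ubiquinone. Complex III moves them on to cytochrome c, and complex IV gives them to oxygen, while complexes I, III and IV pump protons that drive ATP synthase. Blood stem cells are known to lean on glycolysis while quiescent and to raise respiration as they become committed progenitors, and most subunits are made from nuclear genes that are known to share a few regulators, among them NRF1, GABP, YY1 and the nuclear receptor ERR alpha.

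The promoters of these genes are shown first because the letters bound by those regulators are a feature that the choice by symbol did not use. RefSeq windows of build GRCm38.p6, from 250 bases before to 50 bases after a gene's start, were at hand for 35 of the 44 genes, in 37 windows. Genes without a window were Ndufa2, Ndufb9, Ndufs1, Sdhc, Uqcrc2, Uqcrb, Cyc1, Cox4i1 and Cox6c. The letters searched on both strands were GCGCA, then any base, then GCGC for NRF1, CCGGAAG for GABP, AAGATGGC for YY1 and TCAAGGTCA for ERR alpha, and matches of different motifs overlapped 0 times in these windows. The NRF1 letters stood in 10 of the 37 windows (27.0%), against 4.60% of all 32851 windows. The GABP letters stood in 8 (21.6%, against 8.86%), the YY1 letters in 6 (16.2%, against 2.75%) and the ERR alpha letters in 1 (2.70%, against 0.423%). At least 1 of the 4 was found in 22 windows (59.5%), against 15.1% of all windows. The median GC content was 59.3% in the respiratory chain windows and 52.7% in all windows. A match describes the letters only, and says nothing of binding in these cells. The stretches below come from the part before the start. They belong to the gene with the largest positive difference (Ndufb2, no match) and the gene with the largest negative difference (Ndufb7, GABP). Also shown is a gene whose NHD13 values all lay above the wild type values (Ndufs6, NRF1, with YY1 letters elsewhere in its window). The last is a complex II gene with both NRF1 and GABP letters (Sdhd, with the ERR alpha match elsewhere in its window). Capitals mark the matched letters, on either strand.
Ndufb2, chr6:39592505-39592564, plus strand: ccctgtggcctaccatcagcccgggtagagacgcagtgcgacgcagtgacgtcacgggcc
Ndufb7, chr8:83566718-83566757, plus strand: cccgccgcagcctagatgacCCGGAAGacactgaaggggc
Ndufs6, chr13:73328483-73328518, minus strand: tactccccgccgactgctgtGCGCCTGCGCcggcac
Sdhd, chr9:50603869-50603948, minus strand: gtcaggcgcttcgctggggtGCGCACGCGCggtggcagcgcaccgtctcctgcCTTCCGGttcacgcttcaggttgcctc

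The arrays detected between 15983 and 16836 of 45281 probes each, and the median probe was read by 42 or 43 beads. Kit, the receptor used for sorting, was bright on every array, between 12.32 and 12.84 in NHD13 and between 12.63 and 12.98 in wild type cells. Markers of cells that the sort should remove were partly present. Of 9 T and NK cell genes, 5 were detected on 0 arrays (Cd3d, Cd4, Cd8a, Ncr1 and Klrb1c) and 1, Nkg7, on all 6, and their summed intensity ranged from 1526 to 9427 in NHD13 and from 4125 to 9014 in wild type arrays. Of 6 B cell genes, Pax5 was detected on 0 arrays and Cd79b on all 6, and of 9 genes of maturing neutrophils 8 were detected on all 6. NHD13 replicate 2 stood farthest out on the first principal component, and granulocyte-monocyte progenitor genes were dimmest there: over 11 of 11 tested genes, such as Mpo and Elane, the summed intensity ranged from 21326 to 169318 in NHD13 and from 95284 to 177402 in wild type arrays. The summed intensity of T and NK cell genes was also lowest on NHD13 replicate 2, and which cells gave that signal was not tested. Nothing in the labels says that the pools came from separate sorts or days, so p-values measure the spread between these pools. In bulk RNA, fewer cells of a type and less RNA per cell cannot be told apart.

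No respiratory chain gene passed the test between NHD13 and wild type cells, and most of the 37 lay near 0 with narrow errors. In limma, 0 passed an adjusted p of 0.05 in either direction, where 0.556% of all tested genes did, and 1 had an unadjusted p under 0.05, against 7.66% of all tested genes. The smallest adjusted p was 0.61, that of Ndufb2. Differences ran from -0.39 to 0.58 with a median of 0.05, beside a median of 0.03 over all tested genes, and 24 of 37 lay above 0 (64.9%, against 54.1% of all tested genes). The typical size of a difference, regardless of sign, was 0.09 over the 37 genes and 0.19 over all tested genes. The 37 genes were mostly bright, and size moved with brightness. At a mean of at least 10 it was 0.08 over 30 respiratory chain genes and 0.14 over all tested genes that bright. At a lower mean it was 0.10 over 7 respiratory chain genes and 0.21 over all dimmer genes. Values of the 2 genotypes did not overlap for 4 genes, or 10.8% where the share over all tested genes was 12.5%. Ndufs6 and Cox4i1 were the 2 without overlap and higher in NHD13, against 6.71% of all tested genes, and Ndufa3 and Ndufs8 the 2 lower, against 5.83%.

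The intervals set limits to these differences. For 28 of 37 genes (75.7%) the 95% interval lay inside a change of 1.5-fold either way, which held for 33.2% of all tested genes. Precision moved with brightness. Of the respiratory chain genes, 30 had a mean of at least 10 and 26 of these had such an interval, against 55.9% of all tested genes that bright, while 2 of the 7 dimmer ones did, against 24.4% of all dimmer genes. The intervals that reached past 1.5-fold belonged to Ndufb2, Ndufb9, Ndufb7, Ndufa5, Ndufs4, Sdhb, Sdhd, Cyc1 and Cox7a2. For these genes a change of that size could not be set aside at this number of arrays.

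**Figure D1:**
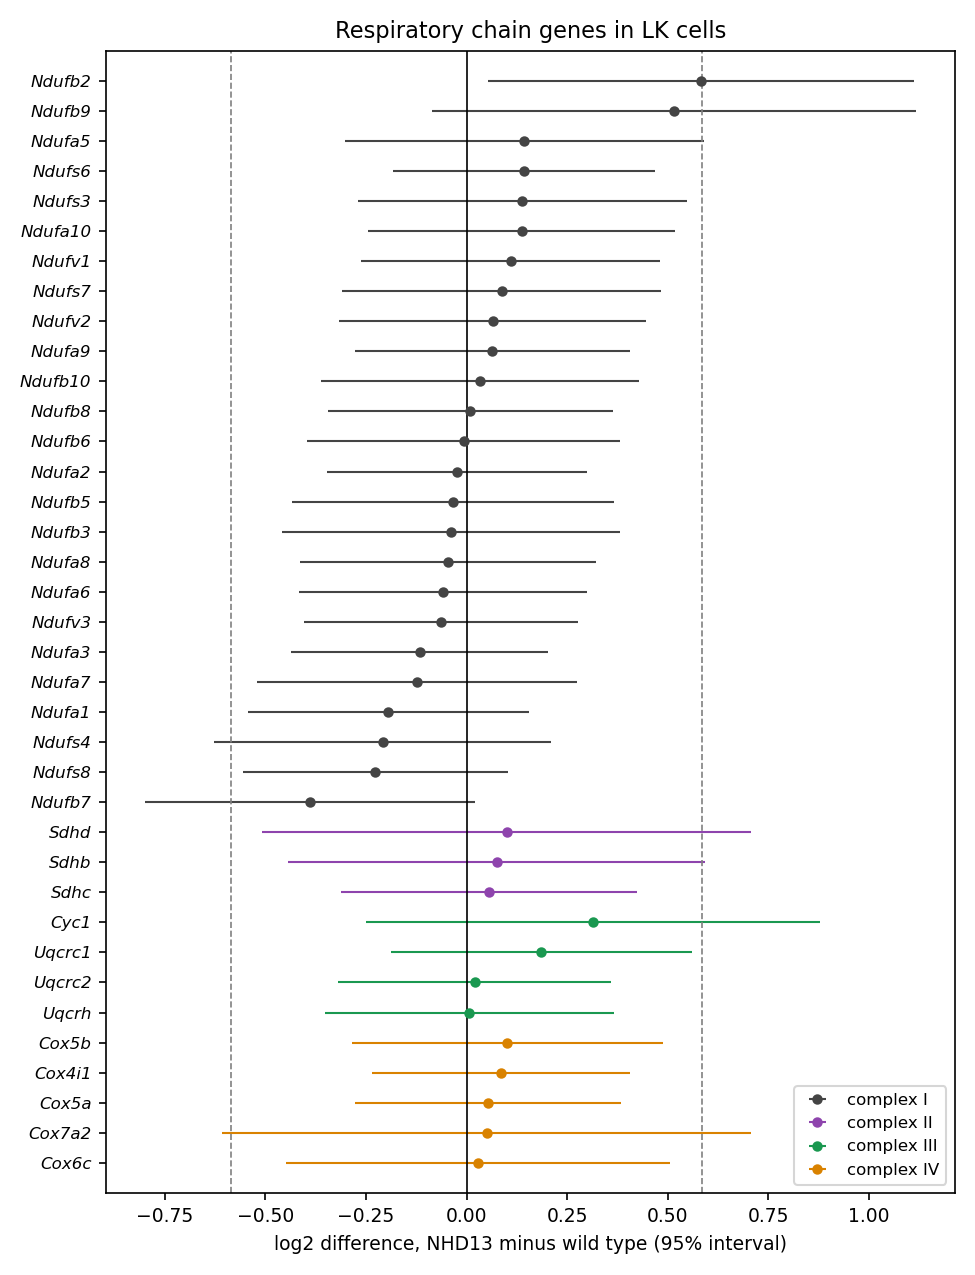
Log2 difference, NHD13 minus wild type (horizontal axis), of the 37 tested respiratory chain genes, grouped and coloured by complex, with 95% intervals from limma over 3 NHD13 and 3 wild type arrays. Dashed lines mark 1.5-fold either way. The points lie between -0.39 and 0.58, and the intervals of 28 genes stay inside the dashed lines.

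Complex I, the NADH dehydrogenase, gave 25 tested genes of 28 listed, with a median difference of -0.01, 12 above and 13 below 0. Its core subunits include those that carry the flavin and the iron-sulfur clusters that conduct electrons. Of the core subunits tested here, Ndufv1, which binds NADH, measured 0.11 ± 0.16 (difference ± SE, n = 3 against 3). Its partner Ndufv2 measured 0.06, and Ndufs3 and Ndufs7 measured 0.14 and 0.09. Ndufs8, which holds iron-sulfur clusters on the way to ubiquinone, lay on the other side of 0. It measured 11.997, 11.868 and 12.031 in NHD13, against 12.151, 12.243 and 12.184 in wild type cells. All 3 NHD13 values thus lay below all 3 wild type values, by a difference of -0.23 ± 0.14, or 0.855 of the wild type level (adjusted p = 0.71). Ndufs1, the largest core subunit, had a probe that was detected on 0 arrays and was left untested.

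The largest differences came from accessory subunits of the membrane arm, which surround the core and are needed for assembly. Ndufb2 measured 7.077, 6.779 and 6.521 in NHD13, against 5.996, 6.551 and 6.081 in wild type cells. The lowest NHD13 value lay just under the highest wild type value, and the difference was 0.58 ± 0.22 (95% interval 0.05 to 1.11, adjusted p = 0.61). Ndufb9 measured 7.39, 7.76 and 6.95 in NHD13, against 7.17, 6.68 and 6.70 in wild type cells, a difference of 0.52 ± 0.25 with overlapping groups (adjusted p = 0.68). Ndufb7, a small cysteine-rich subunit, lay on the other side. It measured 8.76, 8.63 and 8.97 in NHD13, against 9.31, 9.26 and 8.96 in wild type cells, a difference of -0.39 ± 0.17 (adjusted p = 0.66), with wild type replicate 3 level with NHD13 replicate 3. The probes of these 3 genes were among the dimmer ones of complex I, and their bead standard errors had medians of 5.22%, 6.33% and 5.58% of the intensity. The remaining tested subunits of the same family, Ndufb3, Ndufb5, Ndufb6, Ndufb8 and Ndufb10, measured between -0.04 and 0.03.

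Among the other accessory subunits of complex I, the X-linked Ndufa1 measured 12.46, 12.52 and 12.64 in NHD13, against 12.82, 12.77 and 12.60 in wild type cells. The groups overlapped through replicate 3 of each genotype, and the difference was -0.19 ± 0.15 (adjusted p = 0.76). Ndufs4, whose loss causes Leigh syndrome in humans, measured 11.84, 12.17 and 11.80 in NHD13, against 12.19, 12.29 and 11.95 in wild type cells, a difference of -0.21 ± 0.18 (adjusted p = 0.78). It was lower in NHD13 in each of the 3 same-numbered pairs, yet NHD13 replicate 2 lay above wild type replicate 3. Ndufs6 measured 13.69, 13.85 and 13.71 in NHD13, against 13.61, 13.61 and 13.59 in wild type cells, without overlap and with a difference of 0.14 (adjusted p = 0.79). Ndufa3 lay lower without overlap, by -0.12 (adjusted p = 0.82). The other Ndufa genes, Ndufa2 and Ndufa5 to Ndufa10, and Ndufv3 measured between -0.12 and 0.14. Ndufb4, detected on 0 NHD13 arrays and on 1 wild type array, was left untested, and Ndufs5 had no probe under its symbol in the annotation used here.

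Complex II, the succinate dehydrogenase that also serves the citric acid cycle, gave 3 tested genes of 4, with a median of 0.07. Sdhd, a membrane anchor, measured 6.43, 6.54 and 6.83 in NHD13, against 7.01, 6.33 and 6.15 in wild type cells. The wild type values enclosed the NHD13 values, and the difference was 0.10 ± 0.26 (adjusted p = 0.92). Sdhc, the other anchor, measured 11.89, 11.95 and 11.66 in NHD13, against 11.84, 11.83 and 11.66 in wild type cells, a difference of 0.06 ± 0.16 (adjusted p = 0.93). Sdhb, the iron-sulfur subunit, measured 0.07. The probe of Sdha, the flavoprotein that binds succinate, was detected on 0 arrays.

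Complex III, the cytochrome bc1 complex, gave 4 tested genes of 6, with the highest median of the 4 complexes, 0.10. Cyc1, the cytochrome c1 that hands electrons to cytochrome c, measured 12.22, 12.67 and 11.98 in NHD13, against 11.81, 12.30 and 11.81 in wild type cells. It was higher in NHD13 in 3 of 3 same-numbered pairs but overlapped between genotypes, with a difference of 0.31 ± 0.24 (adjusted p = 0.76). Uqcrc1, a core protein, measured 12.74, 12.94 and 12.77 in NHD13, against 12.56, 12.82 and 12.51 in wild type cells, a difference of 0.19 ± 0.16 (adjusted p = 0.78). Its partner Uqcrc2 measured 0.02, and the hinge protein gene Uqcrh measured 0.01. The best probe of Uqcrfs1, the Rieske iron-sulfur protein, reached detection on 1 NHD13 array and on 0 wild type arrays and was left untested, and Uqcrb had no probe under its symbol in the annotation used here.

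Complex IV, the cytochrome c oxidase, gave 5 tested genes of 6, all between 0.03 and 0.10. Cox4i1, a regulatory subunit, measured 13.779, 13.709 and 13.741 in NHD13, against 13.705, 13.604 and 13.664 in wild type cells. All 3 NHD13 values lay above the wild type values, by 0.09 ± 0.13, with NHD13 replicate 2 just above wild type replicate 1, or 1.06-fold (adjusted p = 0.86). Cox5b measured 14.43, 14.53 and 14.35 in NHD13, against 14.11, 14.48 and 14.41 in wild type cells, with overlap and a difference of 0.10 (adjusted p = 0.87). Cox5a measured 13.50, 13.48 and 13.36 in NHD13, against 13.45, 13.41 and 13.32 in wild type cells, likewise with overlap and a difference of 0.05 (adjusted p = 0.92). Cox6c and Cox7a2 measured 0.03 and 0.05, and Cox8a had no probe under its symbol in the annotation used here.

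Several genes were read by more than 1 tested probe. Of 11 such genes, the probes had the same sign in 7, and the spread between a gene's probes was at most 0.19 in all but Ndufs4. The 4 probes of Ndufs4 measured between -0.53 and -0.02, of which the brightest stands for the gene above, and the lowest had an adjusted p of 0.56. Subunit genes such as Cox5b, Cox6c and Uqcrh have processed copies elsewhere in the genome that a probe can share, and whether these probes read such copies was not tested.

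The 37 genes varied together by array number in both genotypes. Averaged over the 37 genes, the deviation from the 6-array mean was 0.01, 0.12 and -0.07 on NHD13 replicates 1 to 3, against 0.02, 0.05 and -0.13 on wild type replicates 1 to 3. Both arrays numbered 2 thus lay above 0 and both numbered 3 below it: 30 and 26 of the 37 genes were above their own mean on NHD13 and wild type replicate 2, and 8 and 6 on NHD13 and wild type replicate 3. Over all tested genes the mean deviation was -0.04 and 0.01 on NHD13 and wild type replicate 2, and 0.02 on both arrays numbered 3. The median deviation over all tested genes was 0.08 and 0.03 on NHD13 and wild type replicate 2, and -0.02 and -0.03 on replicate 3. Over the 37 genes these medians were 0.13, 0.08, -0.07 and -0.09. Of the 9000 tested genes, 5314 and 5071 were above their own mean on NHD13 and wild type replicate 2, and 4252 and 4086 on replicate 3. Complex III lay at 0.23 on NHD13 and 0.13 on wild type replicate 2, while complex IV lay at 0.14 on NHD13 and -0.02 on wild type replicate 2. Other genes moved with the same numbers. Over 8 of 9 annotated maturing neutrophil genes that were tested, such as Ltf and S100a8, the mean deviation was -1.78 on NHD13 and -1.94 on wild type replicate 2, and 1.65 on NHD13 and 1.91 on wild type replicate 3. Their summed intensity ranged from 3395 to 57550 in NHD13 and from 2846 to 72667 in wild type arrays, and Mmp8 was detected on 0 arrays. Megakaryocyte genes such as Pf4 lay at 0.70 on NHD13 and 0.75 on wild type replicate 2. The part of these cell types in the pattern was not tested.

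**Figure D2:**
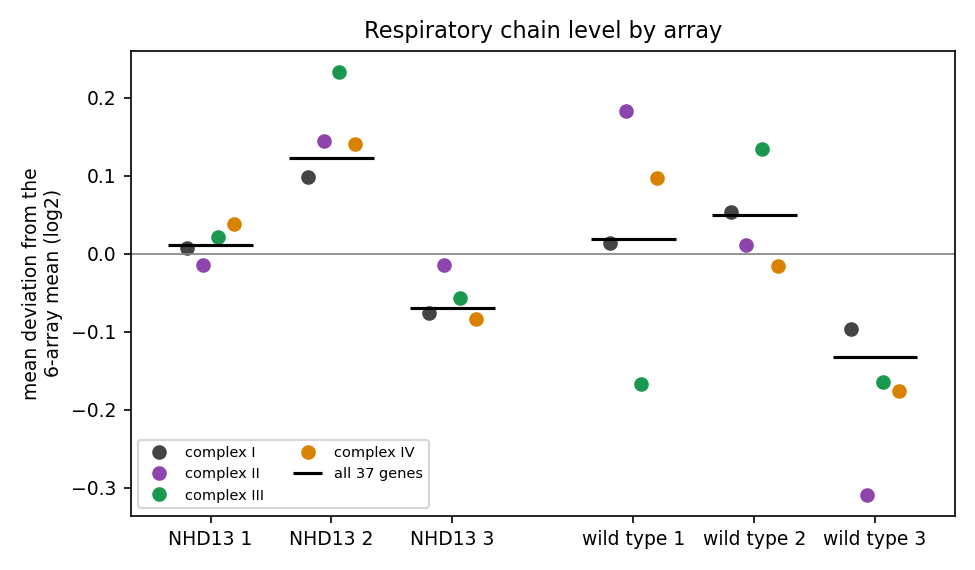
Mean deviation from the 6-array mean in log2 (vertical axis) of the tested genes of each complex (points) and of all 37 (bars), on the 3 NHD13 and the 3 wild type arrays. The bars of both arrays numbered 2 lie above 0, at 0.12 and 0.05, and those of both arrays numbered 3 below it, at -0.07 and -0.13.

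Compared within a number, the 37 genes had median differences of 0.05, 0.07 and 0.03 for the pairs numbered 1, 2 and 3, against 0.02, 0.03 and 0.02 over all tested genes. In NHD13, 19, 26 and 24 of the 37 genes were higher than in the wild type array of the same number. In all pairs 13 genes kept 1 direction, 35.1% beside 42.8% of all tested genes: 10 were higher in 3 of 3 pairs (27%, against 24% of all tested genes) and 3 were lower (8.11%, against 18.8%). With the replicate number as a block, 0 of the 37 genes passed, where 0.622% of all tested genes did, and the smallest adjusted p was 0.28.

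The rest of the pathway was read from gene lists beside the 37 genes. Of 122 tested genes in 9 lists, 1 passed (0.82%, against 0.556% of all tested genes), Cox6a2, which was lower in NHD13. These lists were chosen with earlier results known, as were the 37 genes. Other common subunits of complexes I, III and IV (15 tested) had a median of 0.09, ATP synthase (15 tested) -0.01, citric acid cycle enzymes (11 tested) 0.05, and cytochrome c with the enzymes of ubiquinone synthesis (12 tested) 0.10. Assembly factors had a median of 0.16 with 26 of 36 above 0, and regulators of mitochondrial biogenesis 0.17 with 14 of 16 above 0. Mitochondrial peroxide and superoxide defence, a list that also held the iron-sulfur cluster gene Glrx5, had a median of 0.29 with 6 of 7 above 0. In none of these 3 lists did a gene pass, and all 3 lay above 0 on both arrays numbered 2 and below 0 on both numbered 3. The regulators' mean deviation ranged from -0.16 to 0.29 in NHD13 and from -0.24 to 0.10 in wild type arrays. The arrays numbered 1 differed by genotype. There the defence list lay at 0.34 in NHD13 and -0.10 in wild type, the assembly factors at 0.14 and -0.03, and the regulators at 0.12 and -0.10.

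Among the regulators, Tfam, which packages and transcribes mitochondrial DNA, measured 0.36 ± 0.22 (adjusted p = 0.72) and Gabpa, the DNA-binding subunit of GABP, 0.36 ± 0.25 (adjusted p = 0.73). Both overlapped between genotypes. The probes of Ppargc1a, a coactivator of these factors, and of Yy1 were detected on 0 arrays. Of ATP synthase, the catalytic-core gene Atp5a1 measured 8.60, 8.83 and 8.74 in NHD13, against 8.40, 8.41 and 8.24 in wild type cells. Its groups did not overlap, and the difference was 0.37 ± 0.15 (adjusted p = 0.62), while Atp5k, a small membrane subunit, measured 0.38 (adjusted p = 0.75). Pet100, an assembly factor of complex IV, measured 9.07, 9.21 and 8.75 in NHD13, against 9.82, 9.41 and 9.38 in wild type cells, lower without overlap (difference -0.53 ± 0.20, adjusted p = 0.60). Tmem126b, an assembly factor of complex I, lay higher without overlap, by 0.34 (adjusted p = 0.67). Glrx5, which serves iron-sulfur cluster assembly and through it haem synthesis, measured 0.44 (adjusted p = 0.65), and Txnrd2 of the thioredoxin system measured 0.50 (adjusted p = 0.68). Without overlap and higher in NHD13 were 3 of 15 tested ATP synthase genes, 1 of 36 assembly factors and 1 of 16 regulators. So were 1 of 12 electron carriers and 1 of 3 forms known from muscle, lung or testis, against 6.71% of all tested genes. Lower without overlap were 1 assembly factor and 1 such form, against 5.83%. The other lists held 0.

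The transcripts of mitochondrial DNA itself, of which 7 were tested, had a median of 0.01 and ran from -0.31 to 0.45. ATP6 of the ATP synthase measured -0.31 (adjusted p = 0.71) and ND5 of complex I measured 0.45 (adjusted p = 0.74), while ND4 measured 0.03 and CYTB of complex III measured -0.05. Probes for these transcripts can also read nuclear copies of mitochondrial DNA. Of the electron carriers, Coq10b measured 0.39 and Coq5, without overlap, 0.29 (adjusted p = 0.69 each). Of the citric acid cycle, Dlst and Idh3b measured 0.23 each (adjusted p = 0.74 each). Of the common subunits outside the list of 44, Ndufc2 measured 0.21 (adjusted p = 0.75) and Ndufa4 measured -0.15 (adjusted p = 0.80).

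**Figure D3:**
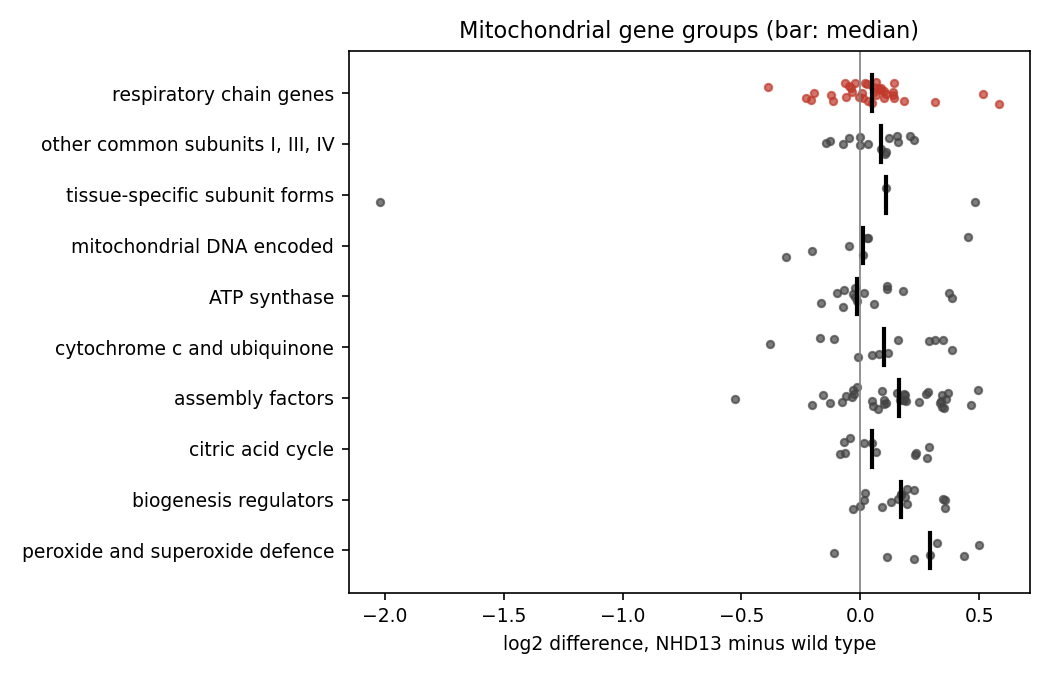
Log2 difference, NHD13 minus wild type (horizontal axis), of each tested gene (points) in the respiratory chain set (red) and in 9 other mitochondrial gene lists (grey), with black bars at the medians. Most points lie within 0.5 of 0, and the point at -2.02 is Cox6a2.

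The 1 gene that passed in these lists, Cox6a2, was lower in NHD13 cells. It encodes the form of a complex IV subunit known from heart and skeletal muscle, where it replaces the common form Cox6a1. Cox6a2 measured 4.97, 4.47 and 5.45 in NHD13, against 6.95, 6.73 and 7.28 in wild type cells. It was detected on 1 of 3 NHD13 arrays and on 3 of 3 wild type arrays, and the groups did not overlap. The fitted difference was -2.02 ± 0.28 (adjusted p = 0.048), where 0.356% of all tested genes passed in the lower direction. Cox6a2 met the filter of 3 detected arrays through the wild type group, where it is high. With no detection filter its adjusted p in limma was 0.094. Since 2 NHD13 values are below detection, the size of the difference is not exact. Cox6a1 measured 13.99, 14.13 and 13.90 in NHD13, against 13.75, 13.98 and 13.95 in wild type cells, a difference of 0.11 (adjusted p = 0.85). The call on Cox6a2 was lost without any 1 array other than NHD13 replicate 3, with adjusted p-values of 0.24 without NHD13 replicate 1, 0.085 without NHD13 replicate 2, and 0.31, 0.10 and 0.24 without wild type replicates 1, 2 and 3, and the difference was then between -2.15 and -1.78.

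Markers of muscle, listed after the value of Cox6a2 was seen, were largely at background: of 15 probes for 10 genes, 11 were detected on 0 arrays, among them those of Acta1, Actc1 and Tnnt3, and Mylpf was the 1 gene detected on all 3 arrays of both genotypes. Mylpf measured 0.65 by its brighter probe (adjusted p = 0.66). Of 8 genes of plasmacytoid dendritic cells, also listed afterwards, Klk1, Ccr9 and Cd209d were detected on 0 arrays, Siglech by its best probe on 2 NHD13 arrays and 1 wild type array, and Spib on 1 array of each genotype. Ly6d was detected on 0 NHD13 arrays and on 2 wild type arrays. Tcf4 and Bst2 were detected on all 6, with differences of 0.43 (adjusted p = 0.56) and -0.57 (adjusted p = 0.71) that did not pass. Itgad and Armc5, the neighbours of Cox6a2 in RefSeq, were detected on 0 arrays by 6 probes. B cell genes, of which 6 of 8 were annotated and 5 tested, lay below 0 in all 5, with a summed intensity of 325 to 821 in NHD13 and 503 to 2009 in wild type arrays. Mast cell, basophil and eosinophil genes lay below 0 in 8 of 8, with a summed intensity of 3653 to 26904 in NHD13 and 8216 to 49312 in wild type arrays. Among them Fcer1a was detected on 0 NHD13 and on 3 wild type arrays, without overlap between genotypes (difference -3.18, adjusted p = 0.44). Fcer1a met the detection filter only through the wild type group, where it is high. Mcpt8, Ms4a2, Ebf1 and Vpreb1 were each detected on 1 NHD13 and 3 wild type arrays, and Epx, Ms4a1 and Igll1 on 1 and 2. For such genes the filter favours a difference below 0, so the directions of these lists are description only. Of the progenitor genes, 5 of 8 annotated were tested and all 5 lay below 0, with Cd34 lower without overlap (difference -1.72, adjusted p = 0.46). Of those left untested, Cd48 and Flt3 were detected on 0 arrays. Ptprc, also untested, was detected on 1 NHD13 and 0 wild type arrays, with a higher mean in NHD13 (5.29) than in wild type cells (4.79). The summed intensity of progenitor genes was 8365 to 11007 in NHD13 and 10485 to 13748 in wild type arrays. Granulocyte-monocyte progenitor genes lay below 0 in 11 of 11, and erythroid genes above 0 in 11 of 11, with a summed intensity of 62785 to 90980 in NHD13 and 59860 to 73932 in wild type arrays. In none of these lists did a gene pass, and their part in the value of Cox6a2 was not tested. Of the other forms known mainly from muscle, lung or testis, Cox7a1 measured 6.71, 6.82 and 6.56 in NHD13, against 6.41, 6.28 and 5.96 in wild type cells. Its groups did not overlap, in the direction opposite to Cox6a2, and the difference of 0.48 ± 0.18 did not pass (adjusted p = 0.59). Cox6b2 measured 0.11, and Cox4i2, Cox7b2, Cox8b and Cox8c were detected on 0 arrays.

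**Figure D4:**
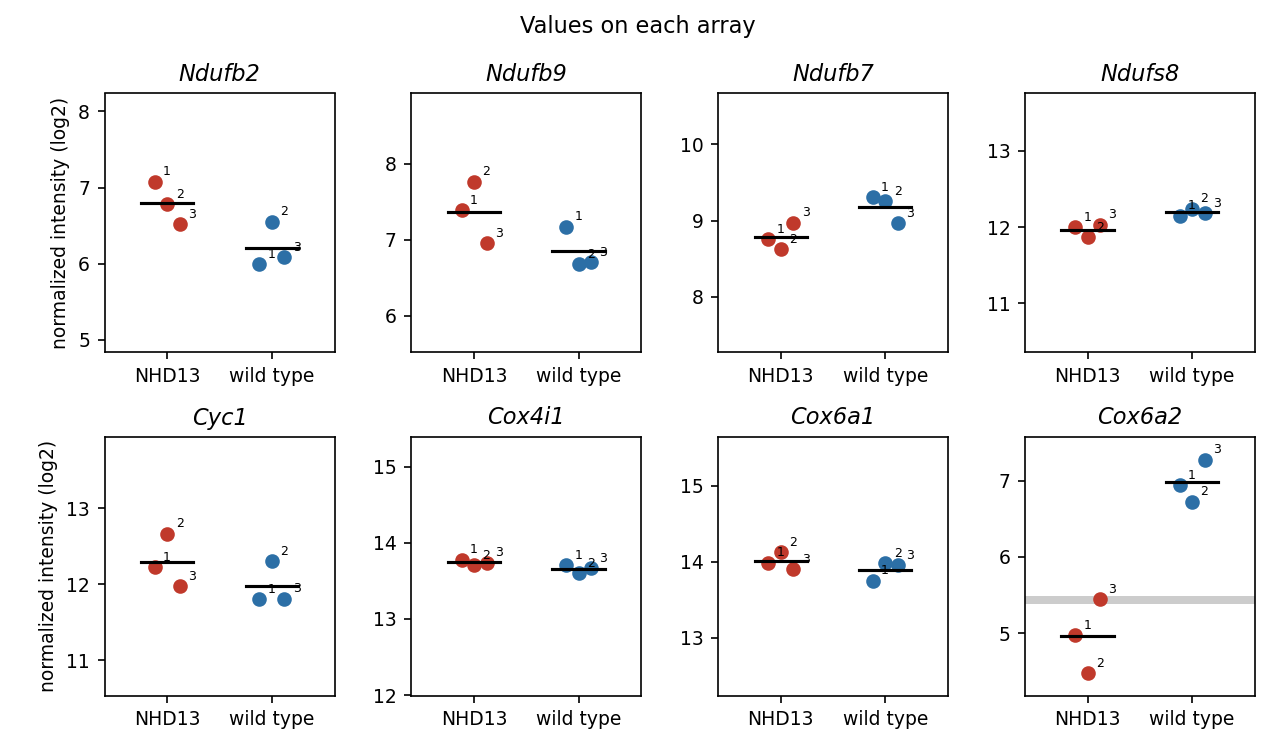
Normalized intensity in log2 (vertical axis, of equal span in each panel) of 8 genes on the 3 NHD13 (red) and 3 wild type (blue) arrays, numbered by replicate, with black bars at the group means. The grey band in the last panel spans the lowest detected values of the 6 arrays, 5.38 to 5.48. Cox6a2 has all NHD13 values below all wild type values, while Ndufb2, Ndufb9, Ndufb7, Cyc1 and Cox6a1 overlap between genotypes.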

How the data were processed

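RNA of 3 NHD13 and 3 wild type pools was labelled with biotin from an oligo(dT) primer, per the labels' protocols. Per the file headers, the deposited table gives each probe's mean intensity over beads, without normalization or background subtraction, with its bead number, bead standard error and a detection p-value. The authors' processed table holds linear intensity values, background-subtracted and brought to 1 distribution, as its values show. Scanner software and probe sequences were not given in the sources used here. Genotype and number were read from the column names.

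The unnormalized intensities went through neqc of limma 3.58.1 in R 4.3.3 (offset 16, negative controls estimated from detection p, quantile normalization, log2). Probes detected (p under 0.05) on at least 3 of 6 arrays were tested, 16518 of 45281, with lmFit and eBayes, two-sided, on all 6 arrays without covariates. P-values were adjusted over these probes by Benjamini-Hochberg. The tested probe of highest mean stood for its gene. In the platform annotation 34885 probes had 1 symbol, 18 several and 10378 none.

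The genes, lists and tests were chosen with earlier results of these data known. All 44 genes could be named. Values per array were given for the genes of smallest p in each complex (6, 2, 2 and 3), and up to 2 genes of smallest p from each other list. Further genes were named after their values were seen, among them Ndufs6, Cox6a1, ND4, CYTB and the marker genes. No set test was run.

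Both genotypes share the numbers 1 to 3. Deviations from the group means correlated at 0.19, 0.67 and 0.54 across probes between the arrays numbered 1, 2 and 3, each over 0.1, so the numbers were read as pairs, from the data and not from the labels. Unlike numbers across genotypes gave -0.61 to 0.24, so that the 0.19 of the arrays numbered 1 does not stand clear of them. The replicate block was an alternative fit. Other alternatives changed the background correction, scaling, offset, detection filter, variance model, weights and probe choice, used the authors' processed values or left out arrays. The number of arrays limits the precision.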

Additional observations from a re-analysis of the deposited data

How the results depend on the processing

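Across 18 alternatives the number of respiratory chain genes that passed was 0, except for 1 with array weights, which gave NHD13 replicate 1 a weight of 5.02 and the other arrays 0.354 to 1.55 (Ndufb2, 0.87, adjusted p = 0.047, in a fit that called 342 genes in all). Over the alternatives the difference of Ndufb2 ran from 0.24 to 0.87. The median difference over the tested genes ran from -0.03 to 0.09, and was -0.02 when NHD13 replicate 2 was left out and -0.03 when wild type replicate 3 was, and each complex's median moved by less than the spread between arrays. Complex III stayed between 0.05 and 0.18, complex IV between 0.02 and 0.11, complex I between -0.04 and 0.05 and complex II between -0.07 and 0.14. Ndufb9 (0.23 to 0.72), Cyc1 (0.12 to 0.48) and Uqcrc1 (0.12 to 0.28) kept their sign in all 18, as did Ndufb7 (-0.50 to -0.27) and Ndufs8 (-0.26 to -0.15), and none of these 5 passed in any. Not all of the 18 could change a sign. The detection filter, variance model and replicate block left these differences as they were. So did probe choice, as each of the 5 genes had 1 tested probe.

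In the other mitochondrial lists the count was 1, Cox6a2, in 9 alternatives. With the replicate number as a block it was 1 there (Cox6a2, adjusted p = 0.020) and 0 among the respiratory chain genes, and the block changed no call named here. It was 0 with no background correction, with no detection filter, with detection required on all 6 arrays, which drops Cox6a2, and with both arrays numbered 2 left out. The last of these was chosen after seeing the data. Leaving out single arrays gave 0 to 1. The difference of Cox6a2 ran from -2.55 (authors' processed values) to -0.81 (no background correction), and 9 of the 17 alternatives that included it called it. Those 9 include the 2 alternatives of probe choice, which could not change its difference. Using a gene's second probe repeated the main fit, since Cox6a2 had 1 tested probe, and the mean over probes left its difference at -2.02. The causes were not tested. Signal over background limits Ndufb4, Ndufs1, Sdha and Uqcrfs1, whose probes give no level.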
